A study of Mus musculus with 45 samples.

Results

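The subject is the C/EBP transcription factors, taken as the 4 genes of the deposited expression table named Cebpa, Cebpb, Cebpd and Cebpg, out of 24421 genes in that table. All 4 passed the filter on low values, which required at least 1 CPM (the reads of a gene scaled to a common library size) in at least 3 libraries and left 11380 genes for testing. The study profiled poly(A) RNA of macrophages grown for 7 days from the bone marrow of C57BL/6 mice in medium conditioned by L929 fibroblasts, with 3 libraries in each of 7 groups. Cells were given interleukin-4 (IL-4, 10 ng/ml) for 2 h or 4 h, interferon-gamma (IFN-γ, 100 ng/ml) for 2 h or 4 h, both cytokines together for 2 h or 4 h (called the combination here), or no treatment. No group carried a genetic change, and the single untreated group served every treatment, so comparisons against it share its 3 libraries.

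C/EBP factors are basic leucine zipper (bZIP) proteins, which bind DNA as dimers with each other or with related bZIP proteins. C/EBPα drives myeloid differentiation and restrains proliferation. C/EBPβ and C/EBPδ are classical mediators of inflammatory and acute-phase gene expression, and in macrophages C/EBPβ is also needed for arginase 1 and other genes of alternative activation. C/EBPγ lacks a transactivation domain of its own and acts mainly through its dimer partners. IL-4 signals through the transcription factor STAT6, and the pair of cytokines is the textbook means of driving macrophages toward classical and alternative activation.

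Libraries held 28920801 to 80028327 reads assigned to genes. Rn45s, the precursor of ribosomal RNA, was singled out after its values were seen, since it took 0.151%, 43.2% and 15.7% of reads in untreated replicates 1, 2 and 3 and at most 3.21% in any treated library. Levels are therefore given as CPM rescaled between libraries by median-ratio factors (rescaled CPM). Macrophage markers were high throughout, with 7 of 7 tested and a summed level of 16333 to 36754 rescaled CPM. Summed markers reached at most 330.0 rescaled CPM for neutrophils, 26.8 for T cells, 14.7 for B cells, 10.5 for dendritic cells, 17.7 for fibroblasts, 1.12 for mast cells and 0.674 for erythroid cells. Replicates carry numbers only, with no word on separate animals or cultures, so the p-values rest on a spread that may be technical. In bulk RNA, fewer expressing cells and less RNA per cell cannot be told apart.

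All 4 genes lie on autosomes, with positions from GENCODE vM21 on GRCm38. Cebpa (ENSMUSG00000034957.10) occupies chr7:35119293-35121928 on the plus strand as a single exon block of 2636 bases. Cebpg (ENSMUSG00000056216.9) lies beside it at chr7:35046422-35056573 on the minus strand, in 3 exon blocks of 5621 bases in all, and the pair is 62.7 kb apart. Cebpb (ENSMUSG00000056501.3) is at chr2:167688915-167690418 and Cebpd (ENSMUSG00000071637.5) at chr16:15887286-15891031, each a single exon block on the plus strand. The deposited counts are not stated to use strand, and several exons overlap genes of the opposite strand. Cebpb shares 312 exon bases (20.7% of its length) with Tmem189, and Cebpd shares 562 (15.0%) with Spidr. How reads over those bases were counted is not known.

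RefSeq promoter sequences of GRCm38.p6 matched 3 of the 4 genes and are shown because Cebpa and Cebpb changed level between the cytokines and Cebpg is the neighbour of Cebpa, so the motifs of the factors activated by the cytokines were looked for there. Each line gives the 250 bases before the annotated start, 5′ to 3′ on the strand of the gene, for Cebpa (chr7:35119043-35119292, plus strand), Cebpb (chr2:167688665-167688914, plus strand) and Cebpg (chr7:35056567-35056816, minus strand). Capitals mark matches to the motifs described after the sequences.
Cebpa: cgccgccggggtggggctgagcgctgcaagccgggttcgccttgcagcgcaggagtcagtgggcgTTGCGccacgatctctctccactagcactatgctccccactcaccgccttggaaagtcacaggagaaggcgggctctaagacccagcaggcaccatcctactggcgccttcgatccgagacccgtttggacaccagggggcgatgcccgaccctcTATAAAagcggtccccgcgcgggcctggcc
Cebpb: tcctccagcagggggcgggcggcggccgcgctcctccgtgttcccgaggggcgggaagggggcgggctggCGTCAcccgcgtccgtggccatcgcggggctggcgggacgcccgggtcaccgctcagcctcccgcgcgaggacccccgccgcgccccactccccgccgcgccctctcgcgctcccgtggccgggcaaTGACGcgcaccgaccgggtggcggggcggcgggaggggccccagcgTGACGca
Cebpg: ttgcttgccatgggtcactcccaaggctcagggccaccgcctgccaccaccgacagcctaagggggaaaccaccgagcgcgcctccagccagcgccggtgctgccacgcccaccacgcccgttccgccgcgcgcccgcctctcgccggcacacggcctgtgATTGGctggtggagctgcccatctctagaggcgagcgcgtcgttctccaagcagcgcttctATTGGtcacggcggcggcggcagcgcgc
Motifs were searched on both strands as exact letters, and the share of all 32851 promoter windows holding each is given beside it. The Cebpa window held 1 C/EBP half-site (TTGCG, 14.5% of windows) at 185 to 181 bases before the start and 1 TATA box (TATAAA, 12.4%) at 30 to 25 bases before it. The Cebpb window held 3 half-sites of the cyclic AMP response element (TGACG or its complement CGTCA, 17.8%), the last of them at 7 to 3 bases before the start. The Cebpg window held 2 CCAAT boxes on the opposite strand (read as ATTGG, 33.8%), at 89 to 85 and 28 to 24 bases before the start. None of the 3 windows held the letters of a STAT6 site (TTC and GAA separated by any 4 bases, 5.85% of windows). Also absent were the gamma-activated site (TTC and GAA separated by any 3 bases, 7.02%) and the interferon-stimulated element core (GAAA repeated after any 2 bases, 2.98%). A match is a string of letters and not a measured binding site, and the shares refer likewise to the 250 bases before each start.

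Across the study, Cebpa and Cebpb had the widest ranges, with group means spanning 3.22 and 2.88 on the log2 scale, against 0.81 for Cebpg and 0.56 for Cebpd. Changes were tested in 17 contrasts with limma on log2(rescaled CPM + 1), with p-values adjusted over all 11380 tested genes and a call at an adjusted p under 0.05. This scale understates changes of genes near 1 CPM. Against untreated cells, IL-4 called 0 of the 4 transcripts at 2 h (8.62% of all tested genes called) and 0 at 4 h (22.1%). IFN-γ called 1 at 2 h (17.9%) and 2 at 4 h (39.2%). The combination called 0 at 2 h (22.2%) and 2 at 4 h (42.6%). Between the combination and IFN-γ alone, 0 were called at 2 h (3.01%) and 1 at 4 h (11.9%), and between the combination and IL-4 alone 0 at 2 h (14.8%) and 1 at 4 h (30.9%). Between IL-4 and IFN-γ, 2 were called at 2 h (19.4%) and 2 at 4 h (42%). Where limma called 0 of these, edgeR called 0 as well, and DESeq2 called 0 except for 1 between the combination and IFN-γ at 2 h. In that contrast 2 members had an unadjusted p under 0.05 (9.38% of all tested genes), and in the others 0 did. With 4 transcripts, a count is too small to be set apart from such background shares. The results therefore concern the direction and size in each transcript rather than the counts.

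**Figure D1:**
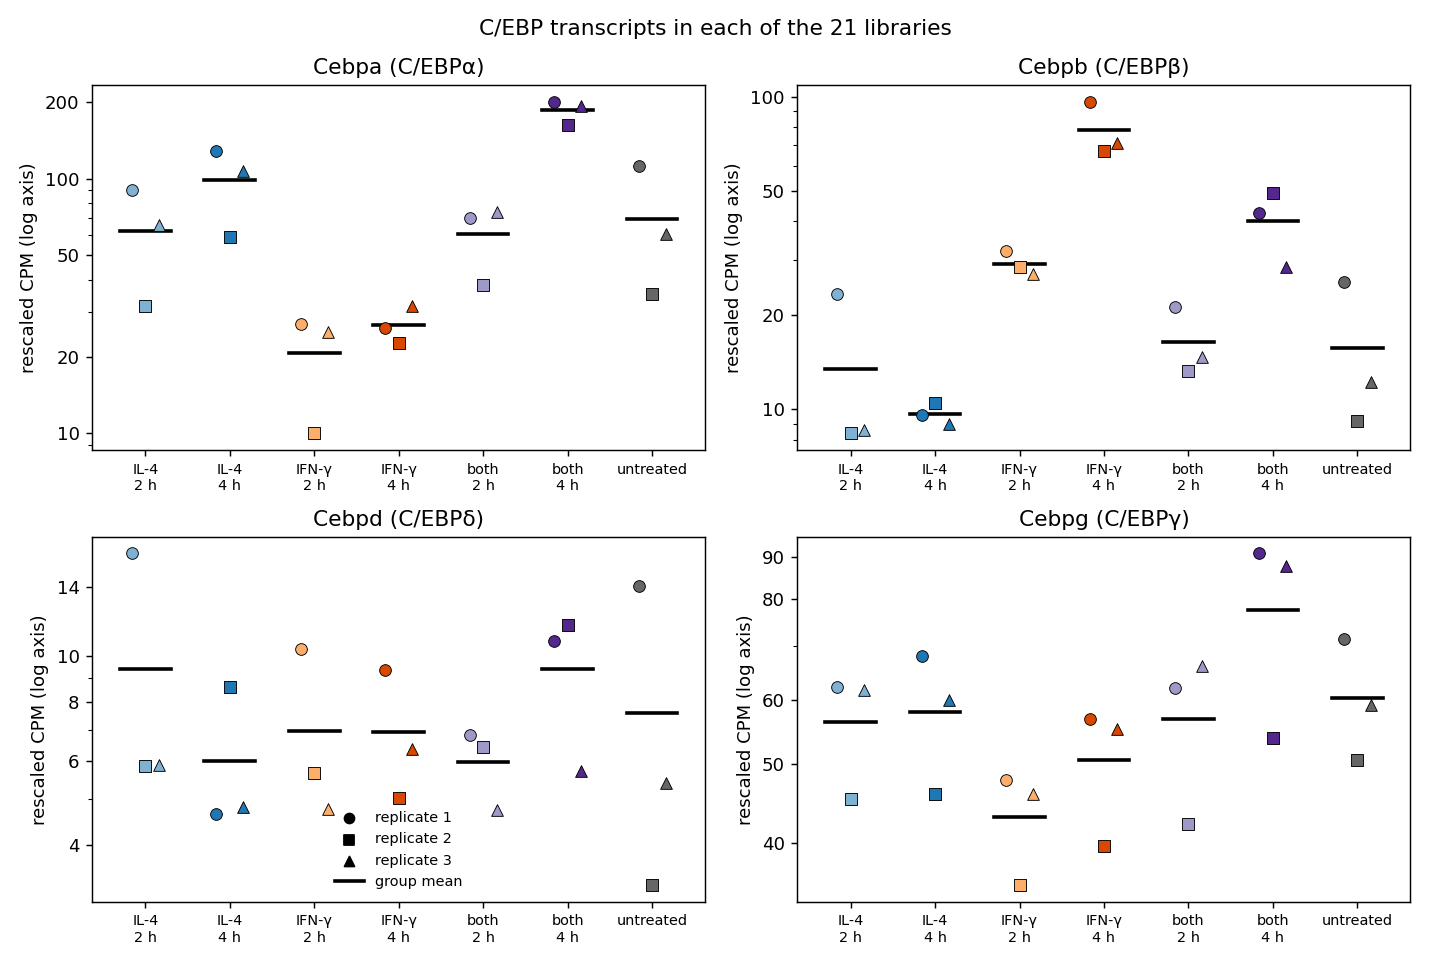
Rescaled CPM on a log axis for each C/EBP transcript in each of the 21 libraries, by group, with marker shape for the replicate number and bars for group means. Cebpa reached 163 to 201 under the combination at 4 h and 9.98 to 31.6 under IFN-γ, and Cebpb reached 67.1 to 96.6 under IFN-γ at 4 h.

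Cebpa, which encodes the differentiation factor C/EBPα, fell under IFN-γ alone and rose above the untreated level under the combination at 4 h. At 2 h of IFN-γ it had 26.8, 9.98 and 25.0 rescaled CPM, and at 4 h 25.8, 22.7 and 31.6, against 112, 35.3 and 60.6 in untreated cells. All 6 IFN-γ libraries lay below all 3 untreated ones. The fall was 1.66 on the log2 scale at 2 h (log2 change -1.66 ± 0.45 SE, limma adjusted p = 0.015) and smaller in size at 4 h (-1.20 ± 0.45, adjusted p = 0.044). It was negative in 3 of 3 replicate numbers at each time.

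Under the combination at 4 h, Cebpa had 201, 163 and 193 rescaled CPM, and every one of these libraries was above every library of the other 6 groups. The change against untreated cells was 1.56 ± 0.45 (adjusted p = 0.010, 2.94-fold), and that against IFN-γ alone at 4 h was 2.76 ± 0.45 (adjusted p = 4.7e-04, 6.77-fold), positive in 3 of 3 replicate numbers in both. Against IL-4 alone at 4 h it was 0.97 ± 0.45, which missed the threshold (adjusted p = 0.12) and passed with the replicate block (0.0012), with the 2 groups fitted alone (0.045) and without replicate 2 of all groups (0.042), over a range up to 0.39. At 2 h the combination gave 69.8, 38.1 and 73.9 rescaled CPM. These values overlapped the untreated ones (-0.09 ± 0.45, adjusted p = 0.94), while all 3 were above all 3 of IFN-γ alone at 2 h. That last difference was 1.57 ± 0.45 and missed the threshold (adjusted p = 0.083), and it passed with replicate number as a block (adjusted p = 8.9e-05, DESeq2 0.012). Over 18 alternatives its adjusted p ran from 3.5e-06 to 0.95.

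Under IL-4 alone at 2 h Cebpa had 90.2, 31.6 and 65.4 rescaled CPM, overlapping the untreated libraries (-0.12 ± 0.45, adjusted p = 0.98). At 4 h it had 129, 59.2 and 107 rescaled CPM, again overlapping the untreated libraries (0.58 ± 0.45, adjusted p = 0.42, and 0.039 with the replicate block, over a range of 4.7e-04 to 0.86). Set against IFN-γ alone, Cebpa was higher under IL-4 at 2 h (1.55 ± 0.45, adjusted p = 0.021) and at 4 h (1.78 ± 0.45, adjusted p = 0.0041). In order of mean level, Cebpa stood at 186 ± 20.1 rescaled CPM in the combination at 4 h, 98.4 ± 35.5 in IL-4 at 4 h, 69.3 ± 39.1 in untreated cells, 62.4 ± 29.4 in IL-4 at 2 h, 60.6 ± 19.6 in the combination at 2 h, 26.7 ± 4.53 in IFN-γ at 4 h and 20.6 ± 9.23 in IFN-γ at 2 h (SD, n = 3 each). Only the first group and its neighbour, and the combination at 2 h and its neighbour IFN-γ at 4 h, had ranges that did not overlap.

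The calls on Cebpa against untreated cells were lost in several alternatives, some with a smaller change and others with a similar or larger one. The call under IFN-γ at 2 h was held in 13 of 19 alternatives (adjusted p 1.0e-05 to 0.17). It was lost in the deposited scaling (-1.37, adjusted p = 0.061) and with the 2 groups fitted alone (-1.66, 0.090). Leaving out replicate 1 (-1.48, 0.12) or 3 (-1.87, 0.17) of all groups also lost it. So did leaving out IFN-γ replicate 2 (-1.23, 0.090) or untreated replicate 1 (-1.25, 0.089). The call under IFN-γ at 4 h was held in 9 of 19 (adjusted p 1.5e-04 to 0.34). It was lost without any 1 of the 3 IFN-γ libraries, with changes of -1.19, -1.10 and -1.33 (adjusted p = 0.10, 0.11 and 0.059). Leaving out untreated replicate 1 (-0.78, 0.21) or 3 (-1.22, 0.088) ended it too. The same held for replicate 1 (-0.77, 0.34) or 3 (-1.35, 0.22) of all groups. It was also lost without the filter (-1.20, 0.066), in the deposited scaling (-1.09, 0.11) and with the 2 groups alone (-1.20, 0.063). The standard error was 0.52 without any 1 of the IFN-γ libraries and 0.70 without replicate 3 of all groups, against 0.45 with all libraries. The rise under the combination at 4 h was lost without replicate 3 of all groups (1.51, adjusted p = 0.15) and without untreated replicate 2 (1.15, 0.062). Its lowest adjusted p was 2.7e-08. Leaving out the 2 untreated libraries rich in ribosomal RNA left replicate 1, the highest untreated library for Cebpa, as the only control. There the change was 0.72, and the changes under IFN-γ were -2.50 at 2 h and -2.04 at 4 h. The difference between the combination and IFN-γ at 4 h, which does not use untreated libraries, was called in 17 of 18 alternatives (2.65 to 2.88, adjusted p 1.2e-13 to 0.067) and lost without replicate 3 of all groups. The gain under IL-4 against IFN-γ was lost at 4 h without replicate 1 (0.058) or 3 (0.092) of all groups, and at 2 h in 6 of 18 alternatives, among them without IFN-γ replicate 2 (0.12) and without IL-4 replicate 1 (0.12) or 3 (0.074), over ranges of 1.7e-10 to 0.092 and 2.2e-07 to 0.24.

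**Figure D2:**
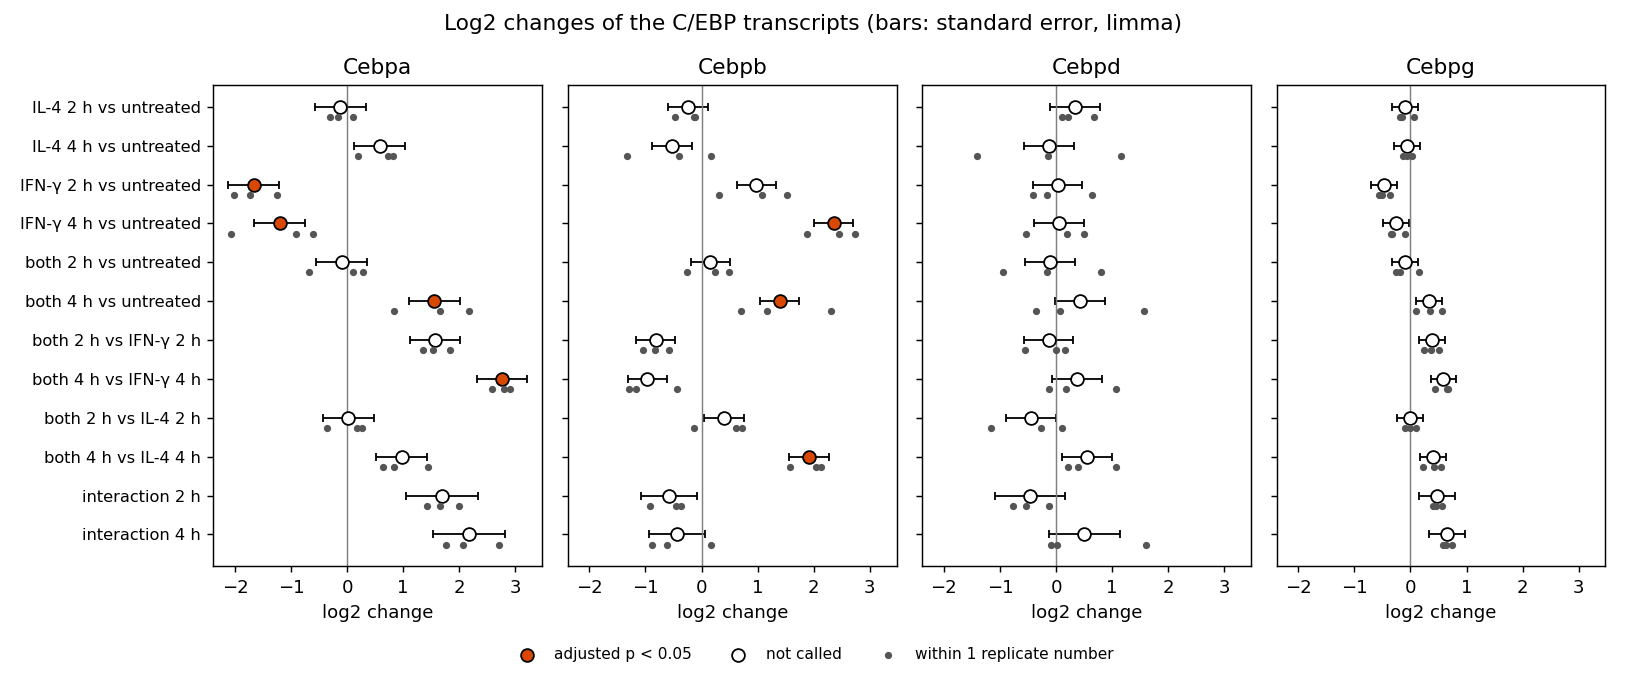
Log2 changes of the 4 transcripts in 12 contrasts (large circles, bars for the standard error from limma, filled where the adjusted p is under 0.05), with small points for the difference within each replicate number. Filled circles appear for Cebpa under IFN-γ (-1.66 and -1.20), for Cebpb under IFN-γ at 4 h (2.35) and for both genes under the combination at 4 h (1.56 and 1.39). At 4 h they also appear for Cebpa in the combination against IFN-γ (2.76) and for Cebpb in the combination against IL-4 (1.91).

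Cebpb, which encodes the inflammatory regulator C/EBPβ, moved the other way under IFN-γ. At 4 h of IFN-γ it had 96.6, 67.1 and 71.3 rescaled CPM, against 25.6, 9.19 and 12.2 in untreated cells, and every IFN-γ library at 4 h was above every library of the other 6 groups. The change was 2.35 ± 0.35 (adjusted p = 5.1e-05, 5.11-fold), positive in 3 of 3 replicate numbers and called in 19 of 19 alternatives (1.56 to 2.75, adjusted p 3.6e-11 to 0.017). At 2 h of IFN-γ Cebpb had 32.2, 28.5 and 27.1 rescaled CPM. All 3 lay above the untreated libraries, with a change of 0.98 ± 0.35 that missed the threshold (adjusted p = 0.068) and passed with the replicate block (0.0047), in the deposited scaling (0.041), without replicate 1 of all groups (1.31, 0.0057) and without untreated replicate 1 (1.38, 0.010), over a range of 1.5e-04 to 0.88.

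The combination raised Cebpb at 4 h to 42.5, 49.3 and 28.6 rescaled CPM, all above the untreated libraries and all below those of IFN-γ alone at 4 h. The change against untreated cells was 1.39 ± 0.35 (adjusted p = 0.0043, 2.62-fold), and that against IL-4 alone at 4 h was 1.91 ± 0.35 (adjusted p = 5.1e-04, 3.76-fold), called in 18 of 18 alternatives. Against IFN-γ alone at 4 h the change was -0.96 ± 0.35, with adjusted p = 0.095 and 0.0064 with the replicate block (0.0064 to 0.65 over 18 alternatives). At 2 h the combination gave 21.3, 13.3 and 14.7 rescaled CPM, within the untreated range (0.16 ± 0.35, adjusted p = 0.85). These 3 libraries lay below all 3 of IFN-γ alone at 2 h (-0.82 ± 0.35, adjusted p = 0.42, and 0.045 with the replicate block, the lowest of 18 alternatives that ran up to 1). The rise under the combination at 4 h against untreated cells was lost without replicate 2 (0.93, 0.10) or 3 (0.060) of all groups and without the 2 untreated libraries rich in ribosomal RNA (0.59, 0.36), over a range of 1.5e-06 to 0.36.

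Under IL-4 alone Cebpb was not called against untreated cells. It had 23.4, 8.38 and 8.58 rescaled CPM at 2 h and 9.60, 10.5 and 8.97 at 4 h, overlapping the untreated libraries at both times (-0.24 ± 0.35, adjusted p = 0.88 at 2 h, and -0.52 ± 0.35, adjusted p = 0.34 at 4 h). Cebpb was lower under IL-4 than under IFN-γ at 4 h by a log2 change of -2.88 ± 0.35 (adjusted p = 5.0e-06), a call held in 18 of 18 alternatives. At 2 h that change was -1.22 ± 0.35 (adjusted p = 0.021), held in 11 of 18 and lost among others in the deposited scaling (0.085), without IL-4 replicate 2 (0.096) or 3 (0.11) and without IFN-γ replicate 1 (0.067), over a range of 7.7e-04 to 0.33. The order of mean levels was 78.3 ± 16.0 rescaled CPM in IFN-γ at 4 h, 40.1 ± 10.5 in the combination at 4 h, 29.3 ± 2.68 in IFN-γ at 2 h, 16.4 ± 4.26 in the combination at 2 h, 15.7 ± 8.75 in untreated cells, 13.4 ± 8.60 in IL-4 at 2 h and 9.69 ± 0.767 in IL-4 at 4 h (SD, n = 3 each). Neighbouring ranges were separate between the first and second group and between IFN-γ and the combination at 2 h, and overlapped elsewhere.

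Tmem189, the antisense partner that shares exon bases with Cebpb and was named after its values were seen, moved the other way under IFN-γ at 4 h, with a log2 change of -0.59 (adjusted p = 3.8e-04) and means of 110 rescaled CPM in IFN-γ at 4 h and 166 in untreated cells. Whether any of the Cebpb counts came from reads over the shared bases was not tested.

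The opposite movements of Cebpa and Cebpb can be read within each library, where the ratio of their reads needs no scaling between libraries and is untouched by the share of ribosomal RNA. This ratio was chosen after the values were seen and is given without a test. The Cebpa reads per Cebpb read were 0.830, 0.351 and 0.925 at 2 h of IFN-γ and 0.267, 0.338 and 0.443 at 4 h, against 4.36, 3.84 and 4.95 in untreated cells. The difference in mean log2 ratio from untreated cells was -2.76 at 2 h and -3.67 at 4 h, with every IFN-γ library below every untreated one. Under the combination the ratio was 3.28, 2.86 and 5.03 at 2 h and 4.72, 3.30 and 6.76 at 4 h, overlapping the untreated range at both times (-0.27 and 0.12). Under IL-4 at 4 h it was 13.4, 5.64 and 12.0, above every untreated library (1.15), and at 2 h it was 3.86, 3.77 and 7.62 (0.14).

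**Figure D3:**
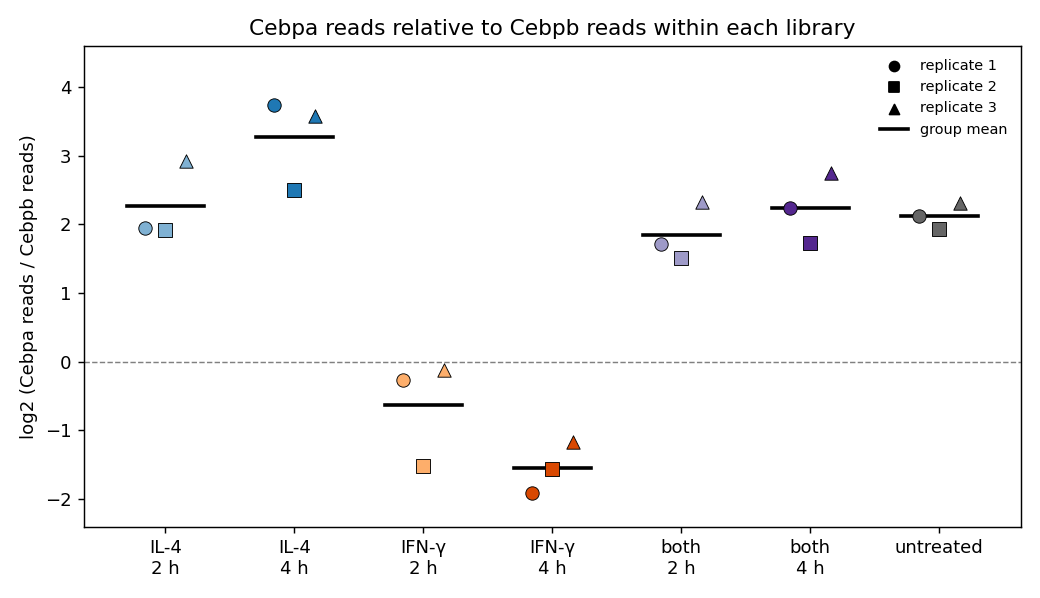
Log2 ratio of Cebpa reads to Cebpb reads in each library, by group, with marker shape for the replicate number and bars for group means. The 6 IFN-γ libraries lie below 0, with group means of -0.63 at 2 h and -1.55 at 4 h, while the combination (1.85 and 2.24) overlaps untreated cells (2.12).

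Levels of different genes are compared only per kilobase of exon. Under the combination at 4 h, Cebpa had 70.4 ± 7.62 rescaled CPM per kilobase, Cebpb 26.7 ± 7.01, Cebpg 13.8 ± 3.65 and Cebpd 2.51 ± 0.852. Under IFN-γ at 4 h, Cebpb was the highest of the family with 52.1 ± 10.6, against 10.1 ± 1.72 for Cebpa, 8.99 ± 1.69 for Cebpg and 1.85 ± 0.596 for Cebpd. In untreated cells Cebpa had 26.3 ± 14.8, Cebpg 10.7 ± 1.85, Cebpb 10.4 ± 5.82 and Cebpd 2.02 ± 1.53 rescaled CPM per kilobase (SD, n = 3 in every group). The lowest Cebpb library under IFN-γ at 4 h (44.6) was above the highest Cebpa library of that group (12.0), and the highest Cebpb library under the combination at 4 h (32.8) was below the lowest Cebpa library of that group (61.7).

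Between 2 h and 4 h, Cebpb differed under IFN-γ, and both genes differed under the combination. With a single untreated group for both times, time in culture cannot be told apart from time with cytokine. Cebpb was higher at 4 h than at 2 h of IFN-γ by 1.38 ± 0.35 (adjusted p = 0.012), the single member of 4 called there, against 17.7% of all tested genes. Under the combination both Cebpa (1.65 ± 0.45, adjusted p = 0.017) and Cebpb (1.23 ± 0.35, adjusted p = 0.022) were higher at 4 h than at 2 h, 2 of 4 against 18.3% of all tested genes. Cebpa under IFN-γ did not pass between the times (0.46 ± 0.45, adjusted p = 0.56). Under IL-4, 0 of 4 were called against 2.81% of all tested genes. There Cebpa changed by 0.70 ± 0.45 (adjusted p = 0.61, and 0.034 with the replicate block) and Cebpb by -0.28 ± 0.35 (adjusted p = 0.89). These 3 calls were lost in the deposited scaling (0.078 for Cebpb under IFN-γ, and 0.054 for Cebpa and 0.10 for Cebpb under the combination) and without replicate 3 of all groups (0.19, 0.20 and 0.18). The Cebpb call under IFN-γ was also lost without IFN-γ 4 h replicate 1 (0.062), and both calls under the combination without 2 h replicate 2 (0.075 for each) or 4 h replicate 1 (0.054 for Cebpa and 0.069 for Cebpb). The Cebpa call was lost too without replicate 1 of all groups (0.083), and the Cebpb call without 2 h replicate 3 (0.071), 4 h replicate 2 (0.085) or replicate 2 of all groups (0.15). The adjusted p ranged from 2.7e-04 to 0.19 for Cebpb under IFN-γ, from 2.6e-06 to 0.20 for Cebpa under the combination and from 7.0e-04 to 0.18 for Cebpb under the combination.

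Whether the combination departed from the sum of the single cytokines was asked with an interaction, taken as the log2 change of the combination less those of IL-4 and of IFN-γ. No member was called at 2 h (0 of 4, against 0.369% of all tested genes) or at 4 h (0 of 4, against 1.7%). For Cebpa the interaction was 1.69 ± 0.64 at 2 h (adjusted p = 0.77) and 2.18 ± 0.64 at 4 h (adjusted p = 0.12), positive in 3 of 3 replicate numbers at both times. With the replicate block it passed at 2 h (adjusted p = 0.0046) and 4 h (2.0e-04), and DESeq2 called it at 4 h (0.010), over ranges of 0.0046 to 1 and 1.9e-04 to 0.96 across 25 alternatives each. For Cebpb it was -0.58 ± 0.50 at 2 h and -0.44 ± 0.50 at 4 h, with adjusted p of 1 and 0.88. At an unadjusted limma p under 0.05, 1 of the 4 members passed at 2 h, against 4.3% of all tested genes, and 1 at 4 h, against 11.2%, Cebpa at each time. edgeR called 0 members at either time.

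Cebpg, the partner factor without its own activation domain, had group means closer together than those of Cebpa or Cebpb. It had 91.0, 53.9 and 87.7 rescaled CPM under the combination at 4 h, 47.8, 35.4 and 46.0 under IFN-γ at 2 h and 56.8, 39.6 and 55.2 under IFN-γ at 4 h, against 71.2, 50.6 and 59.2 in untreated cells. Replicate 2 was the lowest in 7 of 7 groups, and neighbouring groups overlapped throughout the order of means, which ran from 43.1 to 77.5. With all libraries and no block, no contrast called Cebpg. The largest change between groups was 0.59 ± 0.23, between the combination and IFN-γ at 4 h (adjusted p = 0.12). The interaction at 4 h was 0.65 ± 0.33 (adjusted p = 0.49). Comparing libraries within replicate numbers reduced the standard error to 0.078 (0.11 for the interactions), and 12 contrasts were then called.

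With the replicate block, Cebpg was lower than in untreated cells under IFN-γ at 2 h (-0.48, adjusted p = 1.0e-04) and 4 h (-0.26, adjusted p = 0.0086). It was higher under the combination at 4 h than in untreated cells (0.33, adjusted p = 0.0012), than under IFN-γ alone (0.59, adjusted p = 1.4e-05) and than under IL-4 alone (0.39, adjusted p = 3.8e-04). It was also higher under the combination than under IFN-γ alone at 2 h (0.38, adjusted p = 0.0032) and at 4 h than at 2 h of the combination (0.43, adjusted p = 2.5e-04) and of IFN-γ (0.22, adjusted p = 0.029). Under IL-4 it was higher than under IFN-γ at 2 h (0.38, adjusted p = 8.1e-04) and at 4 h (0.20, adjusted p = 0.037). Its interaction was 0.47 at 2 h (adjusted p = 0.024) and 0.65 at 4 h (adjusted p = 7.8e-04). In the deposited scaling with the block, 4 of these 12 calls held, those of the combination at 4 h against untreated cells and against IFN-γ and those of IL-4 against IFN-γ at 2 h and 4 h. Without the block, leaving out replicate 2 of all groups also brought Cebpg past the threshold under IFN-γ at 2 h (-0.46, adjusted p = 0.0079) and under the combination at 4 h against untreated cells (0.45, adjusted p = 0.0039), IFN-γ (0.66, adjusted p = 0.0013) and IL-4 (0.48, adjusted p = 0.0042).

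Cebpd, which encodes the acute-phase factor C/EBPδ, was the lowest member per kilobase and was not called in any contrast, with or without the block. It had 9.38, 5.02 and 6.36 rescaled CPM under IFN-γ at 4 h and 10.8, 11.6 and 5.73 under the combination at 4 h, against 14.1, 3.28 and 5.39 in untreated cells. Untreated libraries alone spanned 3.28 to 14.1, wider than the group means, which ran from 5.99 to 9.43, and every pair of neighbouring groups overlapped. The change at 4 h was 0.05 ± 0.44 under IFN-γ (adjusted p = 0.94) and 0.43 ± 0.44 under the combination (adjusted p = 0.47). With a standard error of 0.44, changes of the size seen in Cebpg could not have been detected for Cebpd at this number of libraries.

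Outside the 4 members, the list held the family genes Cebpe and Ddit3 and the similarly named Cebpz. Of these, Cebpz and Ddit3 were tested. Cebpe, the granulocyte factor C/EBPε, stayed under 1 rescaled CPM in every library and was not tested. Ddit3 (CHOP), a stress-induced partner that blocks binding to classical C/EBP sites, fell at 2 h of IFN-γ (-0.81 ± 0.22, adjusted p = 0.017) and of the combination (-0.69 ± 0.22, adjusted p = 0.035), neither held in the deposited scaling (0.24 and 0.35). At 4 h it had 11.8 ± 4.05 rescaled CPM under IFN-γ and 16.2 ± 4.36 under the combination, against 12.7 ± 1.28 in untreated cells. Cebpz, a CCAAT-binding protein outside the bZIP group, changed by -0.39 ± 0.20 under IFN-γ at 4 h (adjusted p = 0.13, and 0.0029 with the block) and by 0.43 ± 0.20 under IL-4 at 4 h (adjusted p = 0.14, and 0.0023 with the block).

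Among 18 bZIP proteins able to dimerize with C/EBP factors, 17 were tested. Under IFN-γ at 4 h, 8 rose and 2 fell (21.3% and 17.8% of all tested genes), with a list median of 0.89 against 0.00 over all tested genes. Batf2, an interferon-induced partner, rose by 6.24 ± 0.36 (adjusted p = 1.3e-09), to 391 ± 203 rescaled CPM against 3.72 ± 0.653 in untreated cells. Crem, a cyclic AMP response factor, rose by 2.73 ± 0.21 (adjusted p = 2.8e-08), and Junb, an AP-1 subunit, by 2.54 ± 0.38 (adjusted p = 4.6e-05). Under IL-4 at 4 h, 4 of the 17 rose and 2 fell (12% and 10.1% of all tested genes), with a list median of -0.06, and 5 rose and 1 fell in the deposited scaling. Batf3 rose by 3.44 ± 0.30 (adjusted p = 4.2e-07) and Nfil3, a circadian and immune repressor, by 3.23 ± 0.32 (adjusted p = 1.6e-06), and both also rose under IFN-γ (2.60 ± 0.30 and 1.57 ± 0.32, adjusted p = 3.8e-06 and 9.1e-04). Under the combination at 4 h, 10 rose and 3 fell (22.8% and 19.8% of all tested genes).

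Against IFN-γ alone at 4 h, the combination raised 2 of these 17 genes and lowered 4 (5.9% and 5.98% of all tested genes), and 2 and 2 in the deposited scaling. Batf3 was higher (3.10 ± 0.30, adjusted p = 2.6e-06) and Nfil3 was higher (1.94 ± 0.32, adjusted p = 5.3e-04). Crem (-1.23 ± 0.21, adjusted p = 6.4e-04) and Junb (-1.38 ± 0.38, adjusted p = 0.022) were lower, and the Junb call did not hold in the deposited scaling (0.077).

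Of 18 genes that control C/EBP activity, translation or turnover, 17 were tested. Under IFN-γ at 4 h, 4 rose and 2 fell (21.3% and 17.8% of all tested genes), with a list median of -0.07, while 3 rose and 1 fell in the deposited scaling. Stat3, which drives Cebpb and Cebpd transcription, rose by 1.85 ± 0.26 (adjusted p = 2.3e-05). Trib1, the pseudokinase that directs C/EBPα protein to degradation, rose by 2.48 ± 0.58 (adjusted p = 0.0028). It had 43.3 ± 29.8 rescaled CPM under IFN-γ at 4 h and 13.9 ± 7.73 under the combination at 4 h, against 5.91 ± 3.89 in untreated cells. Mapk14, the p38α kinase, fell by 1.13 (log2 change -1.13 ± 0.17, adjusted p = 6.5e-05). Under the combination at 4 h, 3 rose and 6 fell (22.8% and 19.8% of all tested genes), with a list median of -0.14, and 3 rose and 3 fell in the deposited scaling. Under IL-4 at 4 h, 0 of the 17 rose and 3 fell (12% and 10.1% of all tested genes), but 5 rose and 0 fell in the deposited scaling, so the direction of this list under IL-4 depended on the scaling. Fbxw7, a ubiquitin ligase subunit, fell under IL-4 (-0.88 ± 0.11, adjusted p = 2.0e-05) and IFN-γ (-0.61 ± 0.11, adjusted p = 3.1e-04) at 4 h, and neither call held in the deposited scaling (0.078 and 0.054).

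**Figure D4:**
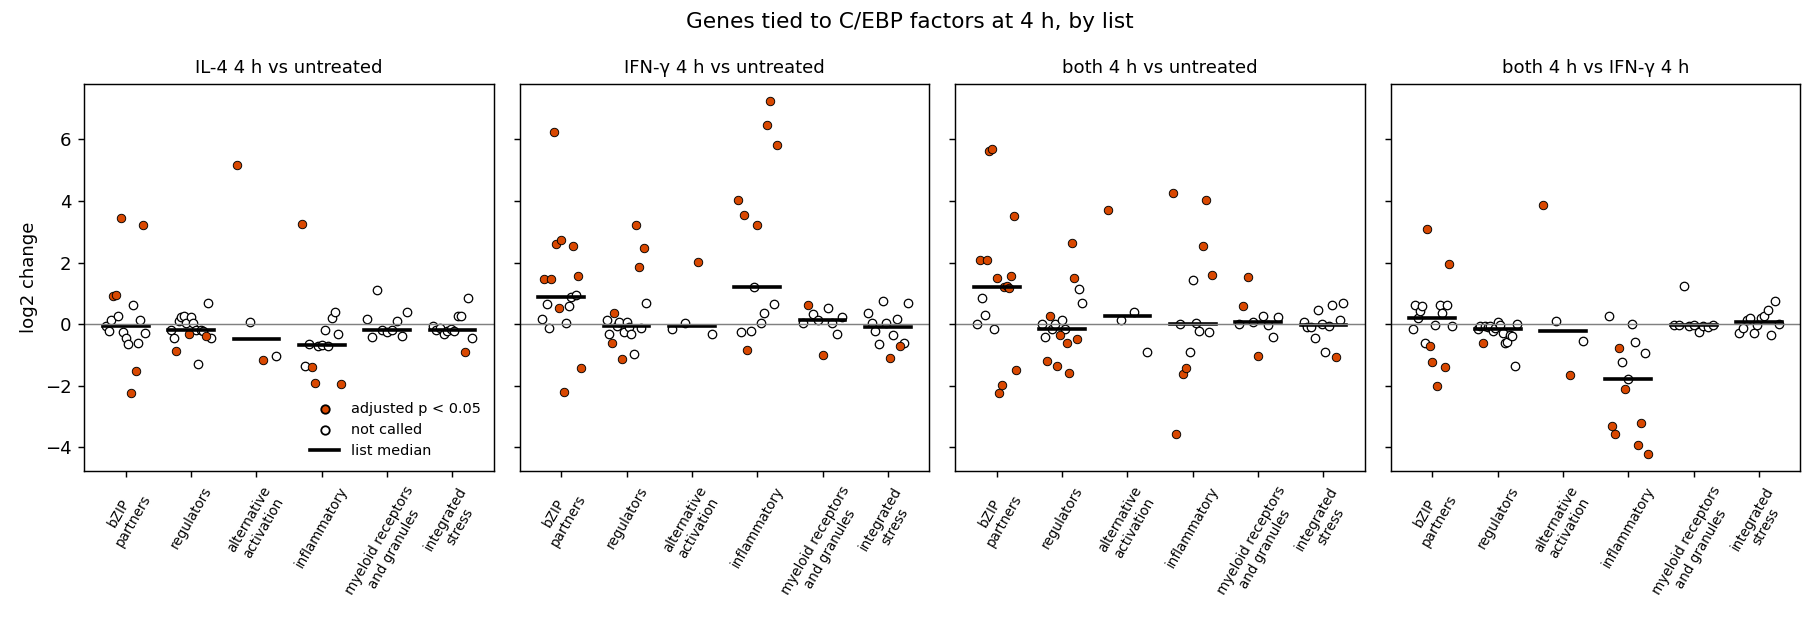
Log2 changes at 4 h of the tested genes in 6 lists tied to C/EBP factors (filled where the adjusted p is under 0.05, bars for list medians), under IL-4, IFN-γ and the combination against untreated cells and for the combination against IFN-γ. The inflammatory list has a median of 1.22 under IFN-γ and of -1.79 in the combination against IFN-γ.

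Of 17 inflammatory genes with C/EBP sites or C/EBP-dependent expression, 13 were tested, as Il6, Il12b, Csf3 and Cxcl1 were too low. Under IFN-γ at 4 h, 6 rose and 1 fell (21.3% and 17.8% of all tested genes), with a list median of 1.22 against 0.00 over all tested genes. Ptgs2 (cyclooxygenase 2) rose by 7.24 ± 0.79 (adjusted p = 1.8e-06), Nos2 (inducible nitric oxide synthase) by 6.46 ± 0.29 (adjusted p = 5.4e-11) and Tnf by 5.81 ± 0.55 (adjusted p = 3.8e-07). The chemokine genes Ccl2 (4.03 ± 0.76, adjusted p = 4.3e-04) and Ccl5 (3.56 ± 0.78, adjusted p = 0.0016) rose as well. Under the combination at 4 h, 4 rose and 3 fell against untreated cells (22.8% and 19.8% of all tested genes), with a median of 0.00. Against IFN-γ alone at 4 h, the combination raised 0 of the 13 and lowered 7 (5.9% and 5.98% of all tested genes), with a median of -1.79 against -0.03 over all tested genes, and 0 and 6 in the deposited scaling. Nos2 was lower by -3.93 ± 0.29 (adjusted p = 9.7e-08), Tnf by -4.21 ± 0.55 (adjusted p = 5.8e-05), Ccl5 by -3.56 ± 0.78 (adjusted p = 0.0051) and Ptgs2 by -3.20 ± 0.79 (adjusted p = 0.011), while Ccl2 differed by 0.25 ± 0.76 (adjusted p = 0.93). Under IL-4 at 4 h, 1 rose and 3 fell (12% and 10.1% of all tested genes), with a median of -0.69, and among them Ccl2 rose (3.26 ± 0.76, adjusted p = 0.0046) and Tnf fell (-1.94 ± 0.55, adjusted p = 0.018).

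Of 4 genes of alternative activation that depend on C/EBPβ, all 4 were tested, and 1 rose and 1 fell under IL-4 at 4 h (12% and 10.1% of all tested genes). Arg1 (arginase 1) rose by 5.16 ± 0.60 (adjusted p = 9.0e-06), to 64.1 ± 70.6 rescaled CPM against 0.255 ± 0.259 in untreated cells. Under the combination at 4 h Arg1 had 19.0 ± 17.0 rescaled CPM and rose by 3.69 ± 0.60 (adjusted p = 9.9e-05), and under IFN-γ at 4 h it had 0.100 ± 0.0797 (-0.17 ± 0.60, adjusted p = 0.86). Il13ra1, a receptor chain for IL-4 and IL-13, fell under IL-4 (-1.17 ± 0.18, adjusted p = 1.8e-04) and rose under IFN-γ (2.03 ± 0.18, adjusted p = 2.2e-07) at 4 h. Msr1 (a scavenger receptor, -1.03 ± 0.67, adjusted p = 0.32) and Il10 (0.05 ± 0.36, adjusted p = 0.95) did not pass under IL-4 at 4 h.

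Of 10 myeloid receptor and granule genes driven by C/EBPα or C/EBPε, 9 were tested, and 1 rose and 1 fell under IFN-γ at 4 h (21.3% and 17.8% of all tested genes, list median 0.13), or 3 and 1 with the replicate block. These were Csf2ra, a chain of the GM-CSF receptor (0.62 ± 0.22, adjusted p = 0.034), and Il6ra, the IL-6 receptor chain (-1.02 ± 0.31, adjusted p = 0.015), and neither held in the deposited scaling (0.088 and 0.064). Of 12 integrated stress response genes that ATF4 drives with C/EBPγ, all 12 were tested, and 0 rose and 2 fell under IFN-γ at 4 h (21.3% and 17.8% of all tested genes, list median -0.09), or 4 and 4 with the replicate block. These were Sesn2 (-1.10 ± 0.41, adjusted p = 0.040) and the cystine transporter Slc7a11 (-0.72 ± 0.24, adjusted p = 0.022), neither held in the deposited scaling (0.12 and 0.076).

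The genes whose levels followed each member most closely over the 21 libraries were taken from 2607 tested genes with a mean of at least 5 CPM and group means that spanned at least 1 on the log2 scale. Predicted genes, RIKEN clones and the members themselves were left out. Cebpg and Cebpd spanned only 0.81 and 0.56, so genes with ranges as narrow as theirs were not candidates. The correlations are descriptive, since libraries share groups, replicate numbers and scaling. For Cebpb they were the AP-1 subunit gene Junb (Pearson r = 0.957 over 21 libraries, 0.979 over the 7 group means), the major vault protein gene Mvp (0.953 and 0.982), the complement factor B gene Cfb (0.950 and 0.981) and the lipid phosphatase gene Mtmr14 (0.937 and 0.991). Junb, for instance, had 222 ± 54.1 rescaled CPM under IFN-γ at 4 h and 84.7 ± 22.7 under the combination at 4 h, against 39.6 ± 21.4 in untreated cells.

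For Cebpa the closest genes were Pdlim4 (0.863 and 0.860), the kinase gene Sik1 (0.854 and 0.872), the repressor gene Bhlhe40 (0.854 and 0.871) and Inpp5a (0.850 and 0.856). Bhlhe40 had 28.0 ± 10.4 rescaled CPM under the combination at 4 h and 8.48 ± 2.89 under IFN-γ at 4 h, against 17.0 ± 3.64 in untreated cells. Unlike Cebpa, it had its highest mean under IL-4 alone at 4 h (42.7 ± 19.1). For Cebpg they were Fam20c (0.851 and 0.764), Pdlim4 (0.819 and 0.793), Prkcd (0.813 and 0.711) and Tbxas1 (0.799 and 0.626), each with a lower r over group means than over libraries. For Cebpd they were Tpgs1 (0.836 and 0.911), the AP-1 subunit gene Jund (0.737 and 0.695), Crlf2 (0.700 and 0.648) and Mefv (0.602 and 0.178).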

How the data were processed

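The deposited table holds CPM per gene for 21 poly(A) RNA libraries of mouse macrophages, and 0 of its sample columns were left unused. Per the submitters' processing notes, the tools were TopHat2 2.1.0 for alignment, HTSeq and edgeR, on build mm10 (GRCm38), with no further settings stated. The series' other 24 libraries, from cells with short hairpin RNAs, were not analysed here. Their labels include hairpins against C/EBPβ, with scrambled controls, in untreated cells and under IFN-γ at 4 h. The deposited CPM were whole multiples of 1 read in 100% of values within 0.01 read, so reads and depths were recovered.

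After rescaling by median-ratio factors, log2(CPM + 1) values entered a limma 3.58.1 model (R 4.3.3, trended empirical Bayes, 7 group means, 14 residual degrees of freedom), for genes reaching 1 CPM in 3 or more libraries. P-values were adjusted by the Benjamini-Hochberg method within each of 17 contrasts. All 4 members were named in every contrast. From each list, up to 5 called genes with the largest change under IFN-γ or IL-4 at 4 h were named, and lists of 4 or fewer in full. A gene that this rule names is not reported here. Members and lists were chosen with earlier results of these data known.

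Alternatives were the deposited scaling, TMM factors, a pseudocount of 0.1, no filter, edgeR 4.0.16 (quasi-likelihood) and DESeq2 1.42.0 on recovered reads, a replicate block with either scaling, a fit of the contrast's groups alone, and each replicate left out. An alternative without the 2 untreated libraries rich in ribosomal RNA was chosen after seeing the data. It left untreated replicate 1 as the only control. The labels number replicates 1 to 3 in every group, and deviations from group means correlated at 0.539 to 0.951 in all 63 same-numbered pairs and at most 0.369 in 126 pairs of different numbers, so the numbers pair the samples, from the data and not from a stated design. The fits were also run on simulated reads with known changes. That simulation held no replicate effect and no libraries rich in ribosomal RNA, so it cannot speak to how those features moved the calls. Promoter letters were searched as exact strings in RefSeq windows.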

Additional observations from a re-analysis of the deposited data

Results flagged for a closer look

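In 3 cases responses differed between the 2 times of the same treatment, where the difference itself was tested with limma. Cebpb under IFN-γ was higher at 4 h than at 2 h by 1.38 on the log2 scale (adjusted p = 0.012, higher in 3 of 3 replicate numbers). Cebpa under the combination was higher at 4 h than at 2 h by 1.65 (adjusted p = 0.017, 3 of 3), and Cebpb under the combination by 1.23 (adjusted p = 0.022, 3 of 3). The same untreated libraries serve both times, so these differences are between treated libraries alone. No formal outlier test was made within groups of 3 libraries.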

How the results depend on the processing

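Of 14 called member changes, 204 of 257 alternative values kept the call, 53 lost it and 0 changed sign. Of 54 changes not called, 50 of 1047 alternative values passed the threshold. The replicate block moved the number of members called to 3 for IFN-γ at 2 h against untreated cells (1 without it), 3 for the combination against IFN-γ at 2 h (0 without it) and at 4 h (1 without it), 3 for the combination against IL-4 at 4 h (1 without it), 2 for IFN-γ at 4 h against 2 h (1 without it), 2 for the interaction at 2 h and 2 at 4 h (0 without it), and 1 for IL-4 at 4 h against untreated cells and against 2 h (0 without it). It also moved the number from 2 to 3, through Cebpg, for IFN-γ at 4 h and the combination at 4 h against untreated cells, the combination at 4 h against 2 h, and IL-4 against IFN-γ at 2 h and 4 h. It ended no call, and the calls it added are those given above. The block with the deposited scaling gave 2, 1, 3, 2, 1, 1 and 1 for IFN-γ at 2 h, the combination against IFN-γ at 2 h and 4 h, the combination against IL-4 at 4 h, the interaction at 2 h and 4 h, and IL-4 at 4 h. The deposited scaling alone called 1 member for IFN-γ at 4 h (25.3% of all tested genes) and 1 for IL-4 against IFN-γ at 2 h (12.6%). At 4 h against 2 h it called 0 for IFN-γ (8.04%) and 0 for the combination (8.46%). The contrast's groups fitted alone called 0 for IFN-γ at 2 h (12.7% of all tested genes) and 1 for IFN-γ at 4 h (28.2%). They called 0 for IL-4 against IFN-γ at 2 h (13.9%) and 2 for the combination against IL-4 at 4 h (25.1%). No filter called 1 for IFN-γ at 4 h. The share of all genes is not given here for that setting or for the block with the deposited scaling. DESeq2 called 1 for the combination against IFN-γ at 2 h (4.38% of all tested genes) and 1 for the interaction at 4 h (3.15%). Without the 2 untreated libraries rich in ribosomal RNA, untreated replicate 1 was the only control. The change under the combination at 4 h was then 0.72 for Cebpa and 0.59 for Cebpb. The cause of these moves was not tested.

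With each replicate left out in turn, the number of members called is given with the range of the share of all tested genes. Against untreated cells it was 0 to 2 for IFN-γ at 2 h (7.07% to 19.7%). It was 1 to 2 for IFN-γ at 4 h (20.4% to 46.2%) and 0 to 2 for the combination at 4 h (24.9% to 47.6%). Against IFN-γ, the combination gave 0 to 2 at 2 h (0.378% to 4.2%) and at 4 h (3.14% to 17.4%). Against IL-4 at 4 h it gave 1 to 3 (14.9% to 34.6%). IL-4 against IFN-γ gave 0 to 2 at 2 h (8.4% to 22.4%) and 1 to 2 at 4 h (24.9% to 47.7%). At 4 h against 2 h the count was 0 to 1 for IFN-γ (3.46% to 25.9%) and 0 to 2 for the combination (4.98% to 23.2%). For the interaction at 4 h it was 0 to 2 (0.185% to 4.28%). Where 1 library is left out of a group, the remaining pair is assumed to vary like the other groups.

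The share of all genes called also moved. The block raised it in all 17 contrasts, among them to 38.1% for IFN-γ at 2 h and 63.3% at 4 h, 66.7% for the combination at 4 h, 10.4% and 32.6% for the combination against IFN-γ at 2 h and 4 h, 56.0% for the combination against IL-4 at 4 h, 45.2% for IFN-γ at 4 h against 2 h, 47.5% and 19.8% for IL-4 at 4 h against untreated cells and against 2 h, and 3.01% and 14.8% for the interaction at 2 h and 4 h. With the block the share was also 46.9% for the combination at 4 h against 2 h, and 39.1% and 63.3% for IL-4 against IFN-γ at 2 h and 4 h. In the deposited scaling it was 36.6% for IL-4 at 4 h, with 3880 genes higher and 290 lower against 1366 and 1149 after rescaling. The same counts were 1598 and 184 against 1227 and 808 for IFN-γ at 2 h, 2014 and 869 against 2429 and 2029 for IFN-γ at 4 h, 2692 and 963 against 2592 and 2258 for the combination at 4 h, and 447 and 251 against 671 and 680 for the combination against IFN-γ at 4 h. That scaling moved the median log2 change of all genes against untreated cells to between 0.10 (IFN-γ at 4 h) and 0.43 (IL-4 at 4 h), where rescaling left it near 0.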

Other observations

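Cebpa and Cebpg were lowest in replicate 2 in 7 of 7 groups, and Cebpg was highest in replicate 1 in 6 of 7. Cebpa, Cebpb and Cebpd were each highest in replicate 1 in 5 of 7 groups. What a replicate number stands for is not given in the sources used here.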
